A study of Mus musculus with 12 samples.

Results

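The genes described here are 40 interferon response genes and sensors of foreign RNA, taken by gene symbol from expression arrays of mouse lung metastasis explants. Probe sets were found for 39 of the 40 symbols among 19505 genes tested, each with a single probe set. Ifi44 was not analysed here. The choice used no measured value, but it was made with earlier results of these arrays known. The explants came from lung metastases that formed from cells injected into the tail vein: NMuMG-ErbB2, a mouse mammary gland epithelial line with the ErbB2 oncogene. All 4 groups share this origin, and each holds 3 arrays: PGC-1alpha explants in phenformin, PGC-1alpha explants in water, control-line (VC) explants in phenformin and control-line explants in water. PGC-1alpha, made from the Ppargc1a gene, is a transcriptional coactivator known for driving mitochondrial biogenesis, and phenformin is a biguanide, a drug that blocks respiratory complex I. Treatment lasted 4 days, at 100 uM phenformin or with water. The labels name no promoter for the PGC-1alpha construct and no number of clones. They also do not say whether the replicates came from separate animals or cultures, so p-values rest on a spread that may be technical.

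Type I interferons bind a receptor made of the Ifnar1 and Ifnar2 chains, and the signal passes through JAK kinases to transcription factors that include Stat2 and Irf9. A complex of these factors binds the interferon-stimulated response element (ISRE) in the promoters of response genes such as Isg15, the Ifit, Oas and Mx families and Irf7. Cells that sense foreign or mislocalized RNA through Ddx58 (RIG-I) or Ifih1 (MDA5) signal through Mavs and make interferon themselves, and epithelial cells carry this machinery.

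The promoters of these genes were searched for letters that factors of the pathway bind. The ISRE was searched as the letters GAAANNGAAA on both strands, with overlapping matches counted, in the 250 bases before each transcription start (RefSeq, GRCm38.p6). Windows existed for 31 of the 40 genes, Ifi44 among them, and 10 of those 31 held a match (32.3%), against 936 of 27025 genes in the whole table (3.46%). The genes with a match were Bst2, Gbp2, Gbp3, Ifit1, Ifit3, Isg15, Oas1a, Oas3, Rsad2 and Stat2. The palindromic letters TTCNNNGAA, the core of the STAT-bound GAS element, lay in 18.9% of 37 windows of the family and in 7.02% of all 32851 windows. Below, 3 promoters with an ISRE match and 2 without one are printed 5′ to 3′ on the gene's strand, with the match in capitals. They were chosen after the values were seen, because each belongs to a gene that passed the test in some comparison. Isg15 (chr4:156200819-156201068, minus strand) holds 3 overlapping matches that begin 78, 72 and 66 bases before the start, and Bst2 (chr8:71537473-71537722, minus strand) holds 2, at 130 and 124 bases. Gbp2 (chr3:142620413-142620662, plus strand) holds 1, on the opposite strand, at 59 bases. Lgals3bp (chr11:118401960-118402209, minus strand) and Dtx3l (chr16:35939028-35939277, minus strand) hold none in this window. Neither do Irf7, Ddx58, Xaf1, Ifit2, Ifnar1 and Ifnar2, the other genes that passed the test in some comparison and had a window.
Isg15: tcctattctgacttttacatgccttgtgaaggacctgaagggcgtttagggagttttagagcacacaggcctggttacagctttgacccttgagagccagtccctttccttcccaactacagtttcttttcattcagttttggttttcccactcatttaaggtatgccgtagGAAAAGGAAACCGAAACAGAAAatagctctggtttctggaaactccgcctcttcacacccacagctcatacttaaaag
Bst2: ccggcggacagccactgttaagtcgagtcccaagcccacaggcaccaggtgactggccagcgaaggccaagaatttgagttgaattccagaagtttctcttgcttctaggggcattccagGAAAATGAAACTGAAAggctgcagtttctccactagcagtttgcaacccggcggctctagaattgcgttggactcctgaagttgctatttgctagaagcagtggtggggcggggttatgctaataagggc
Gbp2: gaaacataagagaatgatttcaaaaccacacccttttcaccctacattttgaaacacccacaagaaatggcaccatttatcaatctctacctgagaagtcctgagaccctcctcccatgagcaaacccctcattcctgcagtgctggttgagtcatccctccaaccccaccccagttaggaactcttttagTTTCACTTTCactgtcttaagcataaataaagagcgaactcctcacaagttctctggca
Lgals3bp: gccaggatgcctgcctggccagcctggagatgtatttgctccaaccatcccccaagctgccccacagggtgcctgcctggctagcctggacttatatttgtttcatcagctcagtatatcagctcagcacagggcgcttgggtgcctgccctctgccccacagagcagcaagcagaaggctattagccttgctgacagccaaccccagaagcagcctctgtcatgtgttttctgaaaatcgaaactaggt
Dtx3l: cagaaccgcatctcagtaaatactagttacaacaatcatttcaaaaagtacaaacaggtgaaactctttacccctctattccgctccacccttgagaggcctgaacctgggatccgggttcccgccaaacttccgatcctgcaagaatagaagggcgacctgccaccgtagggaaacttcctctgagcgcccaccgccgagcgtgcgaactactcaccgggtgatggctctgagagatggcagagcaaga
A match describes letters only, and its absence says only that these letters are not in this window.

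Array values were read as log2 from their range, since the base is not stated. Ppargc1a checked the labels: it read 8.18 to 8.37 in PGC-1alpha explants in phenformin and 6.97 to 7.29 in control-line explants in phenformin (difference 1.13 ± 0.11, SE), and it was likewise higher in PGC-1alpha explants in water (1.03 ± 0.11). Of the epithelial markers, Cdh1, Krt8, Krt18 and Erbb2 lay above background on all 12 arrays, while Epcam, Krt5, Krt7 and Krt14 did so on none. Background was taken as the 95th percentile of 5222 negative control probe sets on each array. None of 8 leukocyte, 5 endothelial and 5 lung epithelial markers passed it on any array. The fibroblast marker Col1a1 passed it on 1 array and the other 4 fibroblast markers on none. The mean over the leukocyte markers, close to the negative controls, ran from 4.97 to 5.25 on the 6 PGC-1alpha arrays and from 4.79 to 5.23 on the 6 control-line arrays. Krt7 was the only one of 31 markers that passed the test, with differences between PGC-1alpha and control-line explants of -0.60 in phenformin and -0.66 in water. Control-line water replicate 2 stood apart on the second principal component (33.28, next array 9.16). Negative controls were brighter on the 6 phenformin arrays (medians 5.09 to 5.20) than on the 6 water arrays (4.69 to 5.02), and the part of this in the phenformin comparisons was not tested. In bulk samples, fewer cells of a type and less RNA per cell cannot be told apart.

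Most of the family was dim. On all 12 arrays, 10 genes exceeded background: the receptor chains Ifnar1, Ifnar2 and Ifngr1, the transcription factor Irf1, the RNA-binding genes Eif2ak2, Adar and Trim25, and Bst2, Lgals3bp and Samhd1. On some arrays, 3 genes did: Ifi35 on 11, Dtx3l on 6 and Ifih1 on 1. The other 26, which include Isg15, the Oas, Mx and Ifit genes and Irf7, exceeded it on no array. For those 26 a difference between groups is given on the log2 scale without a fold.

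A subset of the interferon response genes was lower in PGC-1alpha explants than in control-line explants. In phenformin, 10 of the 39 genes passed the test as lower and 0 as higher, where 3.16% of all 19505 genes passed as lower and 0.856% as higher. The 10 were the receptor chains Ifnar1 and Ifnar2, the factor Irf7, the RNA sensor Ddx58, the ubiquitin-like modifier Isg15, the ubiquitin ligase Dtx3l, and Xaf1, Ifit2, Gbp2 and Lgals3bp. Of these 10, 6 exceeded background on no array, and 3 (Ifnar1, Ifnar2 and Dtx3l) lie on chromosome 16, whose genes were lower as a whole (below). Lgals3bp was the only one of the 10 that exceeded background and lies on another chromosome. In water 3 passed as lower, namely Parp9, Dtx3l and Lgals3bp, and 0 as higher, with 1.37% of all genes passing as lower and 0.636% as higher. Leaving out any 1 of the 6 arrays compared brought the count in phenformin to between 5 and 7, and that in water to between 2 and 5. Without control-line water replicate 2, the array that stood apart, 5 of the 39 passed as lower in water. In that fit 330 of all 19505 genes passed in either direction, and the median difference of the 39 genes was smaller, at -0.18. With all arrays, the median difference of the 39 genes was -0.35 in phenformin and -0.22 in water, beside -0.01 and 0.00 over all genes. A negative difference was found for 33 of 39 in phenformin (84.62%, all genes 51.03%) and for 32 of 39 in water (82.05%, all genes 49.29%). These comparisons share no arrays but contrast the same lines, so any lasting difference between the lines enters both. Of the 39 genes, 28 were negative in both (71.79%, all genes 30.21%). The 3 PGC-1alpha arrays all lay below the 3 control-line arrays for 23 genes in phenformin (16.4% of all genes) and for 13 in water (7.61% of all genes).

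**Figure D1:**
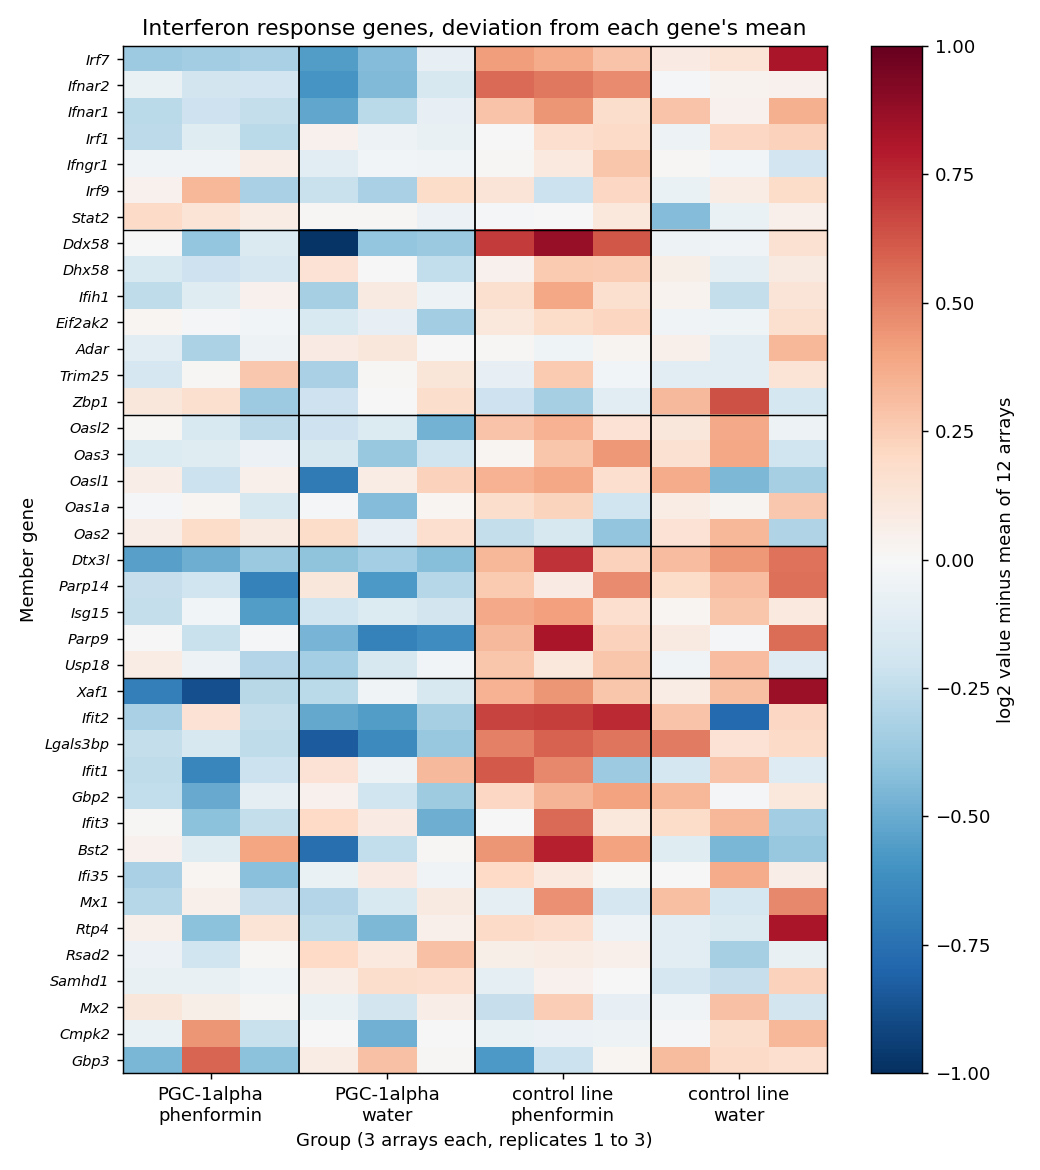
Each row is 1 of the 39 genes, ordered by role and separated by lines into signalling, RNA sensors, Oas genes, the Isg15 and Parp genes and effectors. Each column is 1 array, and colour gives the log2 value minus that gene's mean over the 12 arrays, clipped at 1.00 either way. Blue prevails in the 6 PGC-1alpha columns and red in the 3 control-line phenformin columns.

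The same shift was seen array by array. Averaged over the 39 genes, the deviation from each gene's mean lay between -0.15 and -0.12 in PGC-1alpha phenformin explants and between -0.21 and -0.09 in PGC-1alpha water explants. It lay between 0.16 and 0.28 in control-line phenformin explants and between 0.06 and 0.15 in control-line water explants. No PGC-1alpha array reached the lowest control-line array on this average. Averaged over only the 10 genes above background on all 12 arrays, PGC-1alpha phenformin replicate 3 (-0.03) lay above control-line water replicate 2 (-0.05). Within each treatment the lines still stayed apart. The median difference between the lines for those 10 genes was -0.26 in phenformin and -0.10 in water. For the 26 genes never above background it was -0.34 and -0.29.

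**Figure D2:**
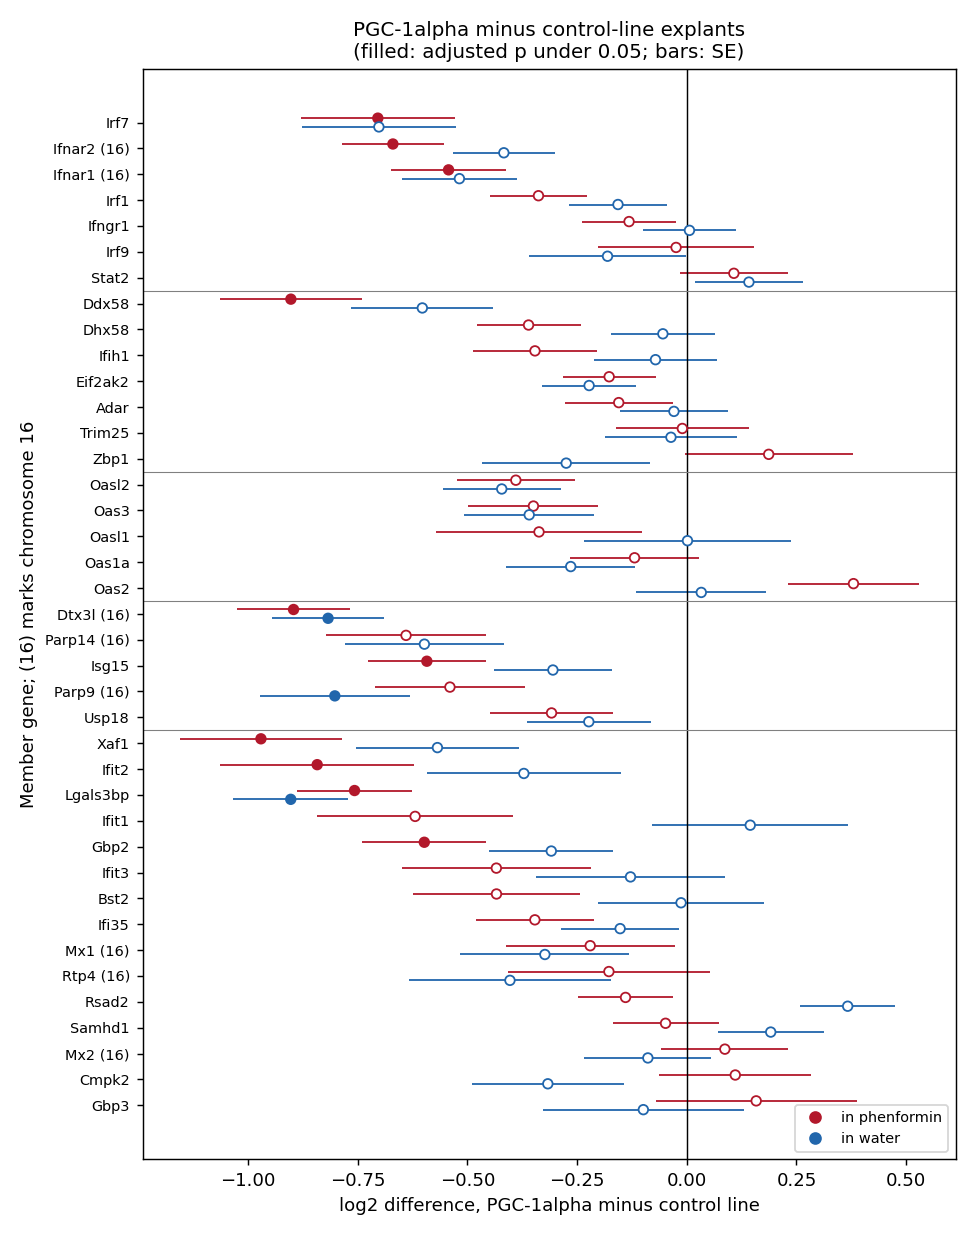
Points give the log2 difference of PGC-1alpha minus control-line explants for each of the 39 genes, in phenformin (red) and in water (blue), with bars of 1 SE (limma, n = 3 per group); filled points passed the test, and (16) marks genes on chromosome 16. Most points lie left of 0, and the filled ones run from -0.97 for Xaf1 to -0.54 for Ifnar1.

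Interferon genes themselves were not measured above background, with 1 exception. Of 10 ligands listed (Ifnb1, Ifna1, Ifna2, Ifna4, Ifna5, Ifne, Ifnk, Ifng, Ifnl2 and Ifnl3), Ifna5 exceeded it on 3 arrays and the others on none. Ifnb1 ranged from 6.01 to 6.79 over the 12 arrays. No ligand passed the test in any comparison.

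The receptor chains were among the bright genes, and the type I chains were lower in PGC-1alpha explants. Ifnar2, the chain that binds Jak1, read 9.80, 9.68 and 9.67 in PGC-1alpha phenformin explants and 10.43, 10.39 and 10.33 in control-line phenformin explants. It read 9.27, 9.42 and 9.70 in PGC-1alpha water explants and 9.85, 9.90 and 9.90 in control-line water explants. The lines do not overlap in either treatment. The difference was -0.67 ± 0.12 in phenformin (1.59-fold lower, adjusted p = 0.00442) and -0.42 ± 0.12 in water (adjusted p = 0.0978).
Ifnar1, the partner chain, read 8.36, 8.42 and 8.39 in PGC-1alpha phenformin explants and 8.91, 9.07 and 8.80 in control-line phenformin explants. In water it read 8.11, 8.36 and 8.55 in PGC-1alpha explants and 8.91, 8.67 and 8.98 in control-line explants. Again no PGC-1alpha array reached a control-line array of the same treatment. Its difference was -0.54 ± 0.13 in phenformin (1.46-fold lower, adjusted p = 0.0326) and -0.52 ± 0.13 in water (adjusted p = 0.0621). The phenformin call for Ifnar1 was lost when any 1 of its 6 arrays was left out (adjusted p 0.0508 to 0.165). A covariate for the control gap, the positive minus the negative control median of each array, lost it too. Ifngr1, a chain of the interferon gamma receptor on another chromosome, differed by -0.13 ± 0.11 in phenformin and 0.01 ± 0.11 in water, with adjusted p of 0.614 and 0.992. The 95% interval of the phenformin difference reaches 0.23 either side of it.

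Chromosome 16 carries both type I chains, and its genes were lower as a whole in PGC-1alpha explants. This was seen after the data were examined, in a look at all 20 chromosomes with genes above background. Of 227 chromosome 16 genes whose mean exceeded background, 216 (95.15%) were lower in PGC-1alpha explants in phenformin, with a median difference of -0.44 and 95 passing the test as lower (41.9%). Over 6880 such genes elsewhere the median was -0.06, and 4.67% passed. In water the chromosome 16 median was -0.35, with 214 of 227 genes lower (94.27%), against 0.03 elsewhere. For phenformin minus water within a line, the chromosome 16 median was 0.00 in PGC-1alpha explants and 0.10 in control-line explants, where the rest gave 0.08. The neighbours of the type I chains in the gene order, Il10rb (a chain shared with the interferon lambda receptor) and Ifngr2 (the second interferon gamma receptor chain), shared the direction. Ifngr2 was 1.75-fold lower in PGC-1alpha explants in phenformin (-0.80 ± 0.11, adjusted p = 0.000853) and 1.57-fold lower in water (-0.65 ± 0.11, adjusted p = 0.00643). Il10rb was 1.37-fold lower in phenformin (-0.46 ± 0.11, adjusted p = 0.0286).

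**Figure D3:**
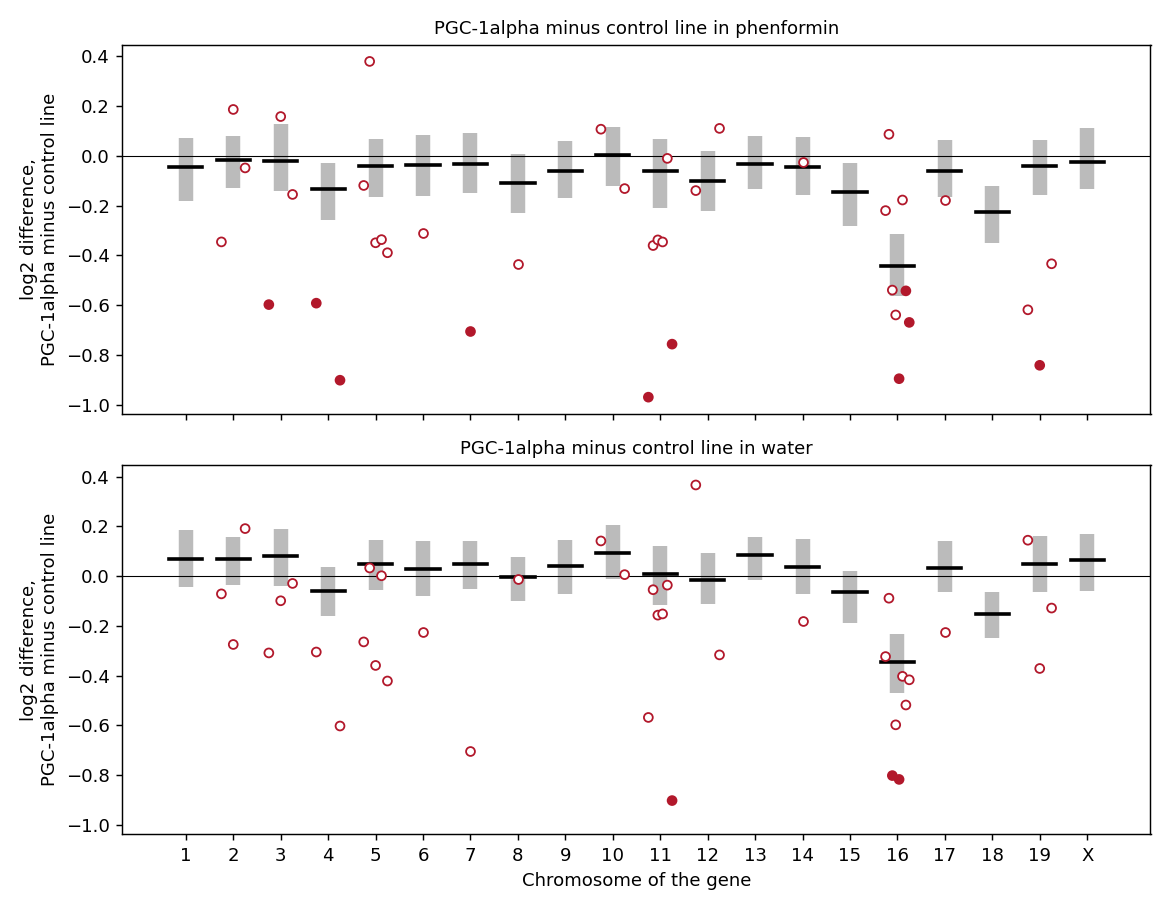
For each mouse chromosome the black bar is the median and the grey box the quartiles of the log2 difference, PGC-1alpha minus control-line explants, over genes whose mean exceeded background, in phenformin (upper) and water (lower). Red circles are the 39 interferon response genes, filled where they passed the test, and chromosome 16 has the lowest median in both panels, -0.44 and -0.35.

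With each array centred per chromosome, a setting added after the data were seen, Ifnar2 differed by -0.24 in phenformin (adjusted p = 0.306) and Ifnar1 by -0.11 (adjusted p = 0.689), so neither kept its call. Of the 39 genes, 8 lie on chromosome 16: Ifnar1, Ifnar2, Parp9, Parp14, Dtx3l, Mx1, Mx2 and Rtp4. Their median difference was -0.54 in phenformin and -0.47 in water, with 3 and 2 of the 8 passing the test. Of all 615 chromosome 16 genes tested, 19.2% passed as lower in phenformin and 8.13% in water, and of the 227 above background 41.9% and 18.9% did. The other 31 had medians of -0.34 and -0.16. Among those 31, 7 passed as lower in phenformin, where 2.64% of genes off chromosome 16 passed, and 1 passed in water, where 1.15% did. After the centring 6 of the 39 genes passed in phenformin (Xaf1, Ddx58, Gbp2, Irf7, Dtx3l and Lgals3bp) and 2 in water (Irf7 and Lgals3bp), with medians of -0.24 and -0.17. All of these were lower, as were 1.89% of all genes in phenformin and 1.26% in water under the same centring. The centring takes each chromosome's shift from genes above background and removes it from dim genes too. Over all genes tested, the phenformin medians of chromosomes 16 and 4 were -0.18 and -0.04, against -0.44 and -0.13 above background. The shift of dim genes alone was not measured. Whether the shift removed from a dim gene matches its own was thus not tested. Its call under this setting, kept or lost, decides nothing. What part a chromosome-wide difference between the lines has in any one gene's value was not tested.

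Among the transcription factors, Irf7, which drives interferon genes and is itself an interferon target, differed most. It read 5.46, 5.48 and 5.50 in PGC-1alpha phenformin explants and 6.24, 6.20 and 6.11 in control-line phenformin explants. It read 5.27, 5.40 and 5.75 in PGC-1alpha water explants and 5.91, 5.96 and 6.64 in control-line water explants. The lines separate in both treatments, although every value lies within the range of the negative controls. Irf7 was lower in phenformin (difference -0.70 ± 0.17, adjusted p = 0.038), and its difference in water was -0.70 ± 0.17 (adjusted p = 0.0588). Leaving out any 1 of the 6 phenformin arrays lost that call (adjusted p 0.0817 to 0.135). Quantile normalization and the control gap as covariate lost it too. Irf1, a bright factor that responds chiefly to interferon gamma, differed by -0.34 ± 0.11 in phenformin (adjusted p = 0.123). Irf9 and Stat2, which take part in binding the ISRE, differed by -0.03 and 0.11 in phenformin and by -0.18 and 0.14 in water, and neither passed the test.

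Of the 7 RNA sensors and RNA-binding genes, 1 passed the test. Ddx58, the RIG-I sensor of RNA with triphosphate ends, read 5.88, 5.49 and 5.73 in PGC-1alpha phenformin explants and 6.57, 6.75 and 6.49 in control-line phenformin explants. In water it read 4.89, 5.49 and 5.50 in PGC-1alpha explants and 5.82, 5.84 and 6.03 in control-line explants. The control-line phenformin arrays are the 3 highest of the 12. Ddx58 was lower in PGC-1alpha explants in phenformin (difference -0.90 ± 0.16, adjusted p = 0.00591), and its difference in water was -0.60 ± 0.16 (adjusted p = 0.085). The phenformin call was kept in all 14 alternatives run. These include the centring per chromosome, which decides nothing for a dim gene. Ddx58 stayed within the negative controls throughout, between their 48.03 and 83.34 percentiles.
Ifih1, the MDA5 sensor of long double-stranded RNA, differed by -0.35 ± 0.14 in phenformin (adjusted p = 0.23) and -0.07 ± 0.14 in water. Dhx58, the LGP2 regulator of both sensors, read 5.45, 5.39 and 5.43 in PGC-1alpha phenformin explants and 5.64, 5.86 and 5.85 in control-line phenformin explants. Its 6 water arrays overlap, at 5.74, 5.60 and 5.36 in PGC-1alpha explants and 5.66, 5.51 and 5.69 in control-line explants. The phenformin difference of Dhx58 was -0.36 ± 0.12 (adjusted p = 0.123). The bright genes of this group differed less: Eif2ak2 (PKR, which stops translation on double-stranded RNA) by -0.18, Adar (which edits such RNA) by -0.16 and Trim25 (a ubiquitin ligase of the RIG-I pathway) by -0.01 in phenformin. Zbp1, a sensor of Z-form nucleic acid, differed by 0.19 in phenformin and -0.27 in water. Downstream, the adaptor Mavs was bright and differed by -0.03 and 0.14, and Irf3 by -0.12 and 0.17, in phenformin and water. Neither passed the test.

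The Oas genes make the oligoadenylates that switch on RNase L. None of the 5 passed the test in either treatment, and all stayed within the negative controls. In phenformin their differences ran from -0.39 for Oasl2 (adjusted p = 0.147) to 0.38 for Oas2 (adjusted p = 0.208). In water they ran from -0.42 for Oasl2 (adjusted p = 0.174) to 0.03 for Oas2. Oas2 was the 1 gene of the 39 whose PGC-1alpha phenformin arrays all lay above the control-line ones, as 11.1% of all genes did.

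The Isg15 and Parp group was negative throughout: all 5 genes in both treatments, with medians of -0.59 in phenformin and -0.60 in water. Of these genes, Parp9, Parp14 and Dtx3l lie on chromosome 16, whose genes were lower as a whole. Dtx3l, a ubiquitin ligase that works with Parp9, read 7.26, 7.31 and 7.43 in PGC-1alpha phenformin explants and 8.13, 8.52 and 8.03 in control-line phenformin explants. It read 7.39, 7.46 and 7.38 in PGC-1alpha water explants and 8.11, 8.23 and 8.34 in control-line water explants. All 6 control-line arrays lay above background and all 6 PGC-1alpha arrays below it. Dtx3l was at least 1.22-fold lower in phenformin (-0.90 ± 0.13, adjusted p = 0.00104) and at least 1.32-fold lower in water (-0.82 ± 0.13, adjusted p = 0.00311).
Parp9, its partner, read 6.15, 5.93 and 6.14 in PGC-1alpha phenformin explants and 6.48, 6.98 and 6.39 in control-line phenformin explants. In water Parp9 read 5.69, 5.48 and 5.54 in PGC-1alpha explants and 6.25, 6.15 and 6.72 in control-line explants. The PGC-1alpha water arrays are the 3 lowest. Parp9 was lower in water (difference -0.80 ± 0.17, adjusted p = 0.025), a call lost without PGC-1alpha water replicate 1, 2 or 3 or control-line water replicate 3 (adjusted p 0.0509 to 0.1). Its phenformin difference was -0.54 ± 0.17 (adjusted p = 0.108).
Parp14, Dtx3l and Parp9 stand next to each other on chromosome 16, and Parp14, an ADP-ribosyltransferase, differed by -0.64 ± 0.18 in phenformin (adjusted p = 0.0693) and -0.60 ± 0.18 in water. Centred per chromosome, Dtx3l differed by -0.46 in phenformin (adjusted p = 0.0498) and -0.48 in water (adjusted p = 0.0609), and Parp9 by -0.46 in water (adjusted p = 0.21).

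Isg15, the modifier whose promoter holds the 3 overlapping ISRE matches printed above, lies on chromosome 4. It read 4.98, 5.19 and 4.66 in PGC-1alpha phenformin explants and 5.59, 5.63 and 5.38 in control-line phenformin explants. In water Isg15 read 5.02, 5.08 and 5.04 in PGC-1alpha explants and 5.24, 5.49 and 5.32 in control-line explants. No PGC-1alpha array reached the control line in either treatment, and no array passed background. Its difference was -0.59 ± 0.14 in phenformin (adjusted p = 0.024) and -0.31 ± 0.14 in water (adjusted p = 0.388). The phenformin call was lost without PGC-1alpha phenformin replicate 1 or 3 or control-line phenformin replicate 1 or 2 (adjusted p 0.074 to 0.123) and after the centring per chromosome (-0.46, adjusted p = 0.119). That centring used a shift taken from brighter genes. Usp18, the protease that removes Isg15 from proteins, differed by -0.31 ± 0.14 in phenformin (adjusted p = 0.299).

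**Figure D4:**
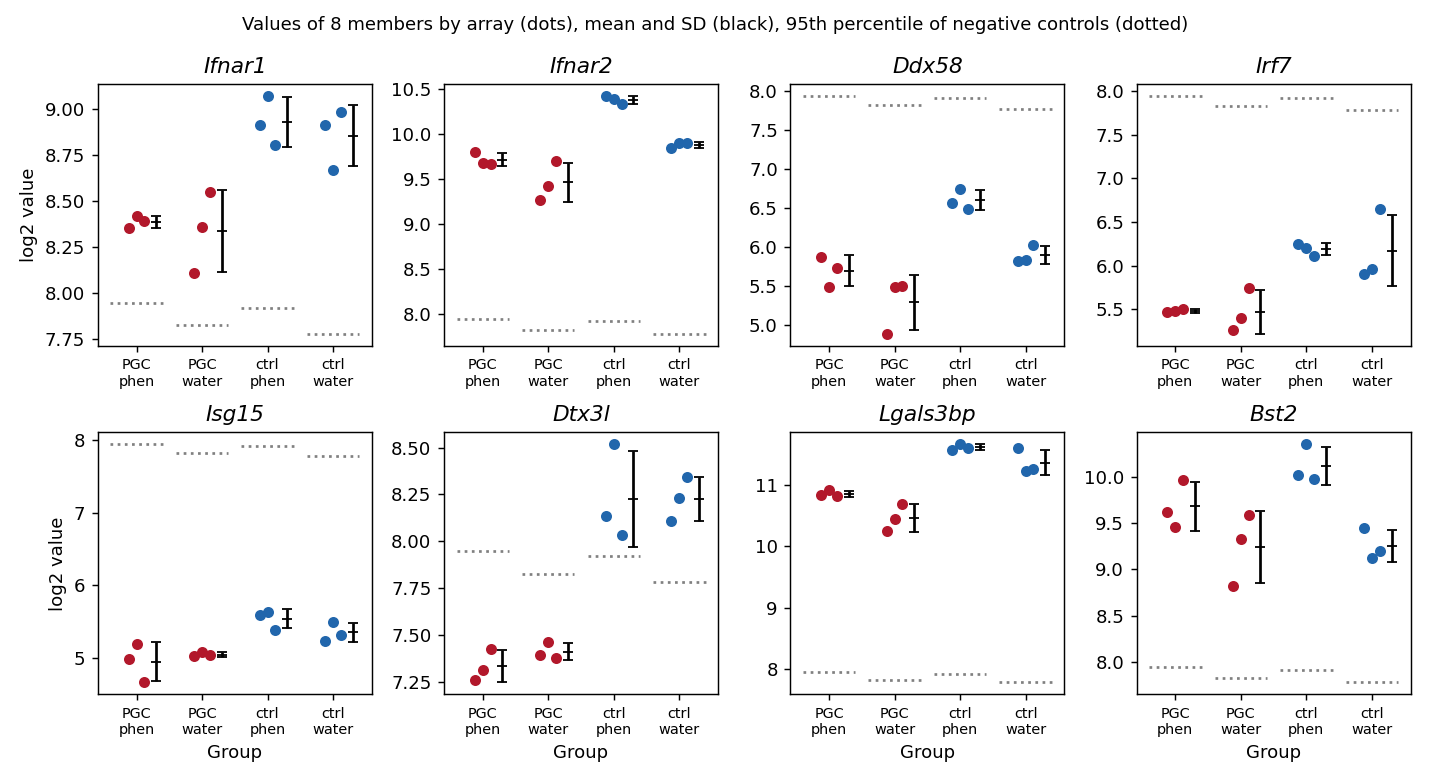
Dots are the log2 values of single arrays for 8 genes, in PGC-1alpha explants (red) and control-line explants (blue), with the group mean and SD beside them and the group's background as a dotted line. Ifnar1, Ifnar2, Lgals3bp and Bst2 lie above background on all 12 arrays, Dtx3l only in the control line, and Ddx58, Irf7 and Isg15 on none.

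Among the 15 effectors, Lgals3bp was above background on every array and lower in PGC-1alpha explants in both treatments. It encodes a secreted glycoprotein that binds galectins. It read 10.84, 10.92 and 10.83 in PGC-1alpha phenformin explants and 11.58, 11.67 and 11.61 in control-line phenformin explants. In water it read 10.25, 10.44 and 10.70 in PGC-1alpha explants and 11.60, 11.22 and 11.27 in control-line explants. The lines are apart by more than the spread of either. Lgals3bp was 1.69-fold lower in phenformin (-0.76 ± 0.13, adjusted p = 0.00454) and 1.87-fold lower in water (-0.90 ± 0.13, adjusted p = 0.00174). Both calls were kept in all 16 alternatives run, the centring per chromosome included (-0.69 and -0.91).
Xaf1, an interferon-induced partner of the apoptosis inhibitor XIAP, had the largest difference of the 39 genes in phenformin. It read 5.27, 5.07 and 5.67 in PGC-1alpha phenformin explants and 6.30, 6.40 and 6.23 in control-line phenformin explants. In water Xaf1 read 5.68, 5.91 and 5.79 in PGC-1alpha explants and 6.03, 6.25 and 6.81 in control-line explants. All control-line arrays lay above all PGC-1alpha arrays. It was lower in phenformin (difference -0.97 ± 0.19, adjusted p = 0.00844, 0.0512 without PGC-1alpha phenformin replicate 2), and its difference in water was -0.57 ± 0.19 (adjusted p = 0.185).
Ifit2, which binds foreign RNA, read 5.51, 5.98 and 5.60 in PGC-1alpha phenformin explants and 6.51, 6.52 and 6.58 in control-line phenformin explants. In water it read 5.33, 5.28 and 5.50 in PGC-1alpha explants and 6.12, 5.06 and 6.04 in control-line explants, where replicate 2 was the lowest of all 12 arrays. Ifit2 was lower in phenformin (difference -0.84 ± 0.22, adjusted p = 0.0494, and 0.0589 to 0.192 when any 1 of the 6 arrays was left out). Quantile normalization and the centring per chromosome also lost this call.
Gbp2, a guanylate-binding GTPase, read 4.01, 3.75 and 4.16 in PGC-1alpha phenformin explants and 4.47, 4.60 and 4.66 in control-line phenformin explants. Its water arrays overlap, at 4.30, 4.06 and 3.90 in PGC-1alpha explants and 4.59, 4.24 and 4.36 in control-line explants. Gbp2 was lower in phenformin (difference -0.60 ± 0.14, adjusted p = 0.0299), a call lost without PGC-1alpha phenformin replicate 1 or 2 or control-line phenformin replicate 2 or 3 (adjusted p 0.0882 to 0.144). The control gap as covariate also lost it. Xaf1, Ifit2 and Gbp2 all stayed within the negative controls.
The remaining effectors did not pass the test between lines. Their phenformin differences ran from -0.62 for Ifit1 to 0.16 for Gbp3, with Mx1 (a GTPase that traps viral particles) at -0.22 and Samhd1 (which breaks down nucleotides for DNA synthesis) at -0.05. In water the effectors ran up to 0.37 for Rsad2 (viperin, adjusted p = 0.131).

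Few of these genes passed the test between phenformin and water. In PGC-1alpha explants 0 of the 39 passed the test between phenformin and water, where 0.195% of all genes passed, and 8 had an unadjusted p under 0.05 by limma, as 11.4% of all genes did. The median difference was 0.05, beside -0.02 over all genes, with 22 genes positive and 17 negative. The smallest adjusted p belonged to Lgals3bp (0.40 ± 0.13, adjusted p = 0.246), Parp9 (0.50 ± 0.17, adjusted p = 0.262) and Ddx58 (0.41 ± 0.16, adjusted p = 0.349). Their arrays are given above, and for Lgals3bp and Parp9 all 3 phenformin arrays exceeded all 3 water arrays. Ifit1, an RNA cap-binding effector, had the most negative difference (-0.51 ± 0.22, adjusted p = 0.4).

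In control-line explants 1 of the 39 genes passed, Bst2 as higher in phenformin, where 1.2% of all genes passed, 0.918% as higher. Bst2 encodes tetherin, a membrane protein that holds budding virions at the cell surface. It read 10.01, 10.35 and 9.98 in control-line phenformin explants and 9.45, 9.12 and 9.20 in control-line water explants, a 1.81-fold rise (0.86 ± 0.19, adjusted p = 0.0477). The phenformin arrays all exceed the water arrays. In PGC-1alpha explants Bst2 read 9.62, 9.45 and 9.97 in phenformin and 8.82, 9.32 and 9.58 in water, with overlap (0.44 ± 0.19, adjusted p = 0.397). The call in the control line lay close to the threshold and was lost in 11 of 16 alternatives, over which its difference ran from 0.74 to 1.53 and its adjusted p from 0.00507 to 0.353. The highest of both came with the control gap, the positive minus the negative control median of each array, as a covariate, and quantile normalization gave 0.77 (adjusted p = 0.0624). It was also lost without control-line phenformin replicate 1, 2 or 3 or water replicate 2 or 3 (adjusted p 0.0577 to 0.21). The bright genes of the control line shared a small shift in phenformin, with a median of 0.08 over the 6880 genes off chromosome 16.
Next came Ddx58 (0.71 ± 0.16, adjusted p = 0.0519) and Ifnar2 (0.50 ± 0.12, adjusted p = 0.052), whose phenformin arrays also all exceeded their water arrays. Both missed the threshold. The median over the 39 genes was 0.11, beside -0.01 over all genes, and 25 were positive. At the other end Gbp3 and Zbp1 each differed by -0.48 (adjusted p = 0.31 and 0.224).

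**Figure D5:**
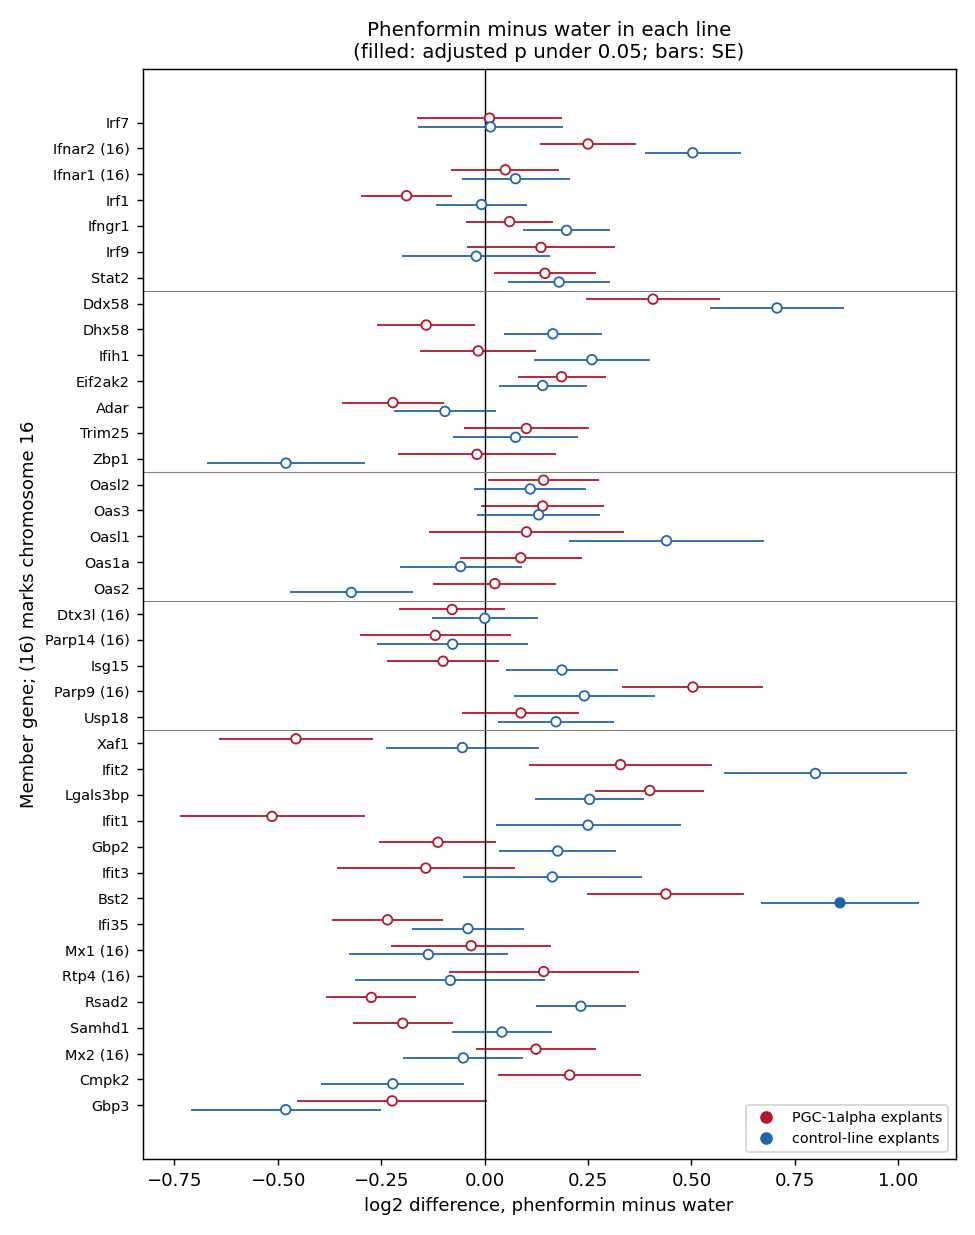
Points give the log2 difference of phenformin minus water for each of the 39 genes, in PGC-1alpha explants (red) and control-line explants (blue), with bars of 1 SE (limma, n = 3 per group); the filled point passed the test. Bst2 in the control line, at 0.86, is the only filled point, and most others lie between -0.50 and 0.50.

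The difference between the phenformin responses of the lines was tested directly. No gene passed among the 39 or among all 19505 (0%), and 2 of the 39 had an unadjusted p under 0.05 by limma, as 5.22% of all genes did. The median difference of responses was -0.08, beside -0.03 over all genes. The smallest p belonged to Rsad2, which makes an antiviral nucleotide. It read 5.11, 4.97 and 5.18 in PGC-1alpha phenformin explants and 5.36, 5.26 and 5.46 in PGC-1alpha water explants. In the control line it read 5.22, 5.24 and 5.22 in phenformin and 5.05, 4.83 and 5.10 in water. Its arrays separate in opposite directions in the 2 lines, all within the negative controls. The difference of responses was -0.51 ± 0.15 (unadjusted p = 0.00547, adjusted p = 0.928).
Ifit1 came next, with 4.59, 4.19 and 4.63 in PGC-1alpha phenformin explants and 4.99, 4.80 and 5.17 in PGC-1alpha water explants. In the control line Ifit1 read 5.46, 5.33 and 4.49 in phenformin and 4.67, 5.14 and 4.71 in water, which overlap. Its difference of responses was -0.76 ± 0.32, and that of Dhx58 was -0.31 ± 0.17, both with adjusted p = 0.928. For Bst2 it was -0.42 ± 0.27 with a 95% half-width of 0.58, so the responses of Bst2 in the lines were not shown to differ, nor to be alike.

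Other genes of the pathway were read from a list of 66 symbols, of which 58 were measured. In phenformin 7 of 58 passed as lower in PGC-1alpha explants and 0 as higher, and in water 4 passed as lower and 0 as higher, with median differences of -0.17 and -0.10. Over all genes 3.16% and 1.37% passed as lower, with medians of -0.01 and 0.00. None passed in the phenformin responses. Beside Ifngr2 and Il10rb, the 5 others in phenformin were Sp100, Ifi27, Trim30a, Parp12 and Sting1. Sp100, a scaffold of nuclear bodies, had the largest difference. It read 4.48, 5.01 and 4.97 in PGC-1alpha phenformin explants and 6.45, 6.77 and 6.43 in control-line phenformin explants (-1.73 ± 0.20, adjusted p = 0.000167), and it was lower in water too (-1.14 ± 0.20, adjusted p = 0.00652). All phenformin values of Sp100 lay below the background of those arrays (7.87 to 7.99). Ifi27 was lower in phenformin (-1.01, adjusted p = 0.0124) and in water (-1.17, adjusted p = 0.00752). Sting1, the adaptor of cytosolic DNA sensing, was at least 1.26-fold lower in phenformin (-0.72 ± 0.16, adjusted p = 0.0183), and Parp12 was lower too (-0.71, adjusted p = 0.0141). Trim30a was lower in phenformin (-0.86, adjusted p = 0.0489). Aim2, a sensor of cytosolic DNA, was lower in water (-0.60 ± 0.14, adjusted p = 0.0364). Centred per chromosome, Sp100, Ifi27 and Parp12 kept their phenformin calls, while Ifngr2 (-0.37, adjusted p = 0.0976), Il10rb (-0.02), Sting1 (-0.50) and Trim30a (-0.82) did not. Ifnlr1, the other interferon lambda receptor chain, passed as higher in phenformin after the centring (0.45, adjusted p = 0.0402) but not before it (0.32). The other alternatives were not run for these pathway genes. The kinase Jak1 was bright and differed by -0.26 and -0.20, and the chemokine Cxcl10 stayed within the negative controls at 5.26 to 6.08. Neither passed the test.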

How the data were processed

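Total RNA of the explants was measured on 12 Affymetrix Clariom S mouse arrays, as the probe set names show. Per the labels' protocols, 10 ng of RNA was turned into labelled cDNA with a small-input kit. The deposited values, 1 column per array over 28815 probe sets, were read as log2 expression from their range. Neither the authors' summarisation and normalization nor the log base is stated in the labels or the file, and another base would rescale every difference. The other deposited table has 12 value columns that match no label, and it was left out. Groups and replicate numbers came from the titles. Symbols came from the platform annotation, where 19572 probe sets have 1 symbol, 0 several and 2634 none, checked through Entrez identifiers against RefSeq (GRCm38.p6), which also gave chromosomes and promoters. For 55 genes with several probe sets the brightest by mean was kept.

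The model, fitted per gene with lmFit and eBayes (limma 3.58.1, R 4.3.3), held the mean of each of the 4 groups. Residual degrees of freedom were 8, and the prior added 5.84. Tests were two-sided, Benjamini-Hochberg adjusted over 19505 genes per comparison, with a threshold of 0.05. Where the dimmer group had no array above background, its values were raised to background and the fold is written "at least". The fit was tested on simulated data. The number of arrays limits the precision.

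Genes, lists and tests were chosen with earlier results of these data known. Values of every array are given for the genes that passed the test in any comparison and for the 3 with the smallest p per comparison, and the rest by role with the largest and smallest difference. Pathway genes are named where they passed, plus a fixed few by level. Alternatives were another normalization, filters on dim genes, a replicate block, a mean-variance trend, array weights, the control gap (positive minus negative control median) as a covariate, the mean of probe sets, fits on the compared groups alone and leaving out each array. Centring each array per chromosome, on the median deviation of its genes above background, was added after the data were seen. It was applied to dim genes too.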

Additional observations from a re-analysis of the deposited data

Results flagged for a closer look

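Rsad2, the gene for viperin, is listed because its arrays separate in opposite directions in the lines. Its difference between phenformin and water was -0.27 in PGC-1alpha explants, where all 3 phenformin arrays lay below all 3 water arrays, and 0.23 in control-line explants, where all 3 lay above. Seen the other way, PGC-1alpha minus control-line explants differed by -0.14 in phenformin and by 0.37 in water, again with no overlap. The difference itself was tested with limma: it was -0.51 ± 0.15, with an unadjusted p of 0.00547 and an adjusted p of 0.928 over 19505 genes, so it fails the correction. All values of Rsad2 lie between the 46.34 and 63.33 percentiles of the negative controls.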

How the results depend on the processing

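Of the genes given array by array, none changed sign, in the comparison it was named for, under the alternatives run. In phenformin, 10 of the 39 genes passed as lower in PGC-1alpha explants. With genes kept only above negative controls in 3 or more arrays, or above the median level, 5 did (dim genes were not tested there), and 6 did after centring per chromosome. Of the 39, the first filter kept only the 10 genes above background on all 12 arrays, Ifi35 and Dtx3l. In the unfiltered fit, 41.9% of the chromosome 16 genes above background passed as lower, and 4.67% of those elsewhere. Leaving out 1 array each gave 5 to 7 of the 39. Quantile normalization lost the phenformin calls of Irf7 and Ifit2, and the control gap as covariate lost those of Irf7, Gbp2 and Ifnar1. In water, 3 passed, 6 with a mean-variance trend and 2 to 5 when 1 array was left out. Parp9 lost its water call with the control gap as covariate and with only the 2 groups compared. For control-line explants in phenformin, where Bst2 alone passed, 0 passed with quantile normalization, array weights, the control gap as covariate, centring per chromosome or only the 2 groups compared, 2 with either filter, 4 with a trend and 0 to 3 when 1 array was left out. In PGC-1alpha explants 0 passed in every alternative.

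Counts over all genes moved more. For phenformin minus water in PGC-1alpha explants, 38 passed, against 250 and 187 with the filters, 255 with a trend, 409 with array weights, 1 with the control gap as covariate, 15 with only the 2 groups and 3 to 77 when 1 array was left out. In control-line explants the 234 became 617, 637, 691, 0 and 13 under the filters, trend, covariate and 2 groups, and 21 to 601 when 1 array was left out. Between the lines, the 783 in phenformin became 1624 with array weights and 346 to 584 when 1 array was left out. The 391 in water became 625 with a trend, 193 with the covariate, 140 with 2 groups and 247 to 330 when 1 array was left out. For the difference of responses, 0 became 1 with the first filter, 3 with a trend and 0 to 1 when 1 array was left out. Where fewer genes or samples entered, that is part of the setting. The cause of the other changes was not tested.

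The replicate numbers are shared across groups, but deviations of same-numbered arrays correlated between -0.37 and 0.06, so the numbers are not read as pairs. With a replicate block, 8 of the 39 genes passed in phenformin (Ifit2 and Ifnar1 were lost), 2 in water (Parp9 was lost) and 0 in control-line explants, and 10, 100, 555 and 280 of all genes passed in PGC-1alpha explants, in control-line explants, between lines in phenformin and between lines in water.

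Signal over background limits 26 of the 39 genes, which never left the negative controls.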

Other observations

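Chromosome 16 was not the only chromosome with a shift between the lines. On chromosome 18, which carries Sting1, 92.57% of 175 genes above background were lower in PGC-1alpha explants in phenformin and 84.57% in water, with medians of -0.22 and -0.15. Chromosome 4, with Isg15 and Ddx58, had medians of -0.13 in phenformin and -0.06 in water over 442 genes, and chromosome 15 had -0.15 and -0.06 over 314 genes. The chromosome 16 median of single arrays, as a deviation from the mean over all arrays, lay between -0.21 and -0.15 in PGC-1alpha phenformin explants and between -0.24 and -0.16 in PGC-1alpha water explants. It lay between 0.21 and 0.29 in control-line phenformin explants and between 0.09 and 0.23 in control-line water explants. The 6880 genes above background off chromosome 16 include those of chromosomes 18, 4 and 15. Their median difference, PGC-1alpha minus control-line explants, was -0.06 in phenformin and 0.03 in water.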
